A study of Rattus rattus with 18 samples.

Results

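The 10 miRNAs described here, from the miR-17-92 cluster and its paralog clusters, were measured in rat brain tissue after transient middle cerebral artery occlusion (tMCAO). They were chosen by name, from cluster membership. All 10 were found among the 761 rat miRNAs of the array, and 9 of them were among the 532 miRNAs that were bright enough to be tested.

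The data came from 18 single-colour arrays of 9 Sprague-Dawley rats, described by the study as adult males with no further age given in the sources used here. Each rat gave 1 array of the region labelled core and 1 of the region labelled peri, the tissue around the core, so that the core and peri arrays of a rat are not independent. Of the rats, 3 were sham-operated, 3 underwent tMCAO, in which a filament closes the middle cerebral artery and is later withdrawn, and 3 are labelled as remote limb postconditioning (PostC). The sources used here do not say whether the PostC rats also underwent tMCAO, and the methods give more than 1 time of sacrifice after reperfusion without naming that of the array tissue. The labels assign core to temporo-parietal cortex and peri to striatum, whereas the methods place the ischemic core in the striatum and the penumbra in temporo-parietal cortex. Which tissue each region holds is therefore unsettled, and the regions are called core and peri throughout, after the sample names. The sham rats had no lesion, so their core and peri are the corresponding uninjured regions. The tissue was analysed in bulk, in which fewer cells of a type and less RNA per cell cannot be told apart.

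The miR-17-92 cluster is a single primary transcript that is cut into several mature miRNAs, and the miR-106b-25 cluster, which lies in an intron of Mcm7, and the miR-106a-363 cluster are its paralogs. A mature miRNA binds messenger RNAs mainly through its seed, a short stretch near its 5′ end, and lowers their translation or stability. The cluster is best known for promoting proliferation and survival by repressing cell cycle inhibitors, and in the nervous system it has been linked to neural progenitor expansion and axon growth. Each hairpin can give a miRNA from either arm, and the arm that is usually less abundant is called the passenger strand.

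The mature sequences, as the array's annotation gives them, sort the members by seed, and they are shown because the seed decides which members can share targets. Capitals mark the seed, bases 2 to 8 counted from the 5′ end. The first 5 share 1 seed and come from all 3 clusters. miR-18a-5p has a related seed of its own, the miR-19 pair share a seed, and miR-92a-3p carries the seed of miR-25-3p and miR-92b-3p, which are printed for comparison. miR-93-3p, cut from the opposite arm of the miR-93 hairpin, shares its seed with no other miRNA of the array.
rno-miR-17-5p: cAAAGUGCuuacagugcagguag
rno-miR-20a-5p: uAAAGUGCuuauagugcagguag
rno-miR-20b-5p: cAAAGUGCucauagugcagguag
rno-miR-93-5p: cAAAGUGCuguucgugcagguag
rno-miR-106b-5p: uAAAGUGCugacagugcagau
rno-miR-18a-5p: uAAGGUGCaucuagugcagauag
rno-miR-19a-3p: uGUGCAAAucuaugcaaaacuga
rno-miR-19b-3p: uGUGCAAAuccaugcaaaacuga
rno-miR-92a-3p: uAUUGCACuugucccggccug
rno-miR-25-3p: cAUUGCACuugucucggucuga
rno-miR-92b-3p: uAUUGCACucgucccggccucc
rno-miR-93-3p: aCUGCUGAgcuagcacuucccga

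Several of these sequences are close enough for a probe to bind its relatives. With positions counted from the 5′ end, miR-19a-3p and miR-19b-3p differ only by U11C, and miR-17-5p differs from miR-20a-5p by C1U and C12U and from miR-20b-5p by U10C and C12U. Signal at these probes may therefore be shared, and how much was shared was not tested. The sequence of miR-93-3p stands alone, since no other miRNA on the array is nearer than 7 edits.

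Levels are given as normalized log2 intensity, the log2 of the background-corrected and normalized spot brightness, and they can be compared between samples for 1 miRNA but not between miRNAs. A miRNA counted as detected where the median of its 4 spots lay over 3 scaled median absolute deviations above the median empty spot of that array. This limit lay between 49.1 and 171 scanner units on the sham arrays, between 77.4 and 346 on the tMCAO arrays and between 52.9 and 566 on the PostC arrays. For tMCAO rat 3, miRNA spots had lower medians (80.3 in core, 129 in peri) than empty spots (152 and 221). The same held for PostC core rats 1 and 2 and PostC peri rat 3, but for no sham array. The limit thus differed between groups, and a difference in detection counts alone does not show a difference in level. miR-17-5p, miR-92a-3p and miR-93-5p were detected on all 18 arrays, miR-20a-5p and miR-106b-5p on 17, miR-93-3p on 14 and miR-19b-3p on 12. miR-20b-5p was detected on 9 arrays, miR-18a-5p on 6 and miR-19a-3p on 1, which left miR-19a-3p untested. The members thus ranged from miRNAs measured in every rat to miRNAs near the brightness of empty spots.

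The arrays differed in quality. They detected 188 to 605 miRNAs each, and the median miRNA spot lay between 49.1 and 261 scanner units. Over the miRNAs, sham core rat 2 correlated with its group mates at 0.890 and 0.899, PostC peri rat 3 at 0.894 and 0.898, and PostC core rat 3 at 0.831 and 0.869, while every other pair within a group reached at least 0.926. Of the 5 brain miRNAs examined as tissue markers, miR-124-3p, miR-9a-5p, miR-128-3p and miR-138-5p were detected on all arrays of all 6 groups. The fifth, the oligodendrocyte miRNA miR-219a-5p, was detected on 3 of 3 sham core arrays (9.21 ± 1.68, SD) but on 0 of 3 tMCAO core and 0 of 3 tMCAO peri arrays. In peri its means were close, at 7.28 ± 0.65 in sham, with 2 of 3 arrays detecting it, and 7.11 ± 0.14 in tMCAO. It was detected on 1 of 3 PostC core and 2 of 3 PostC peri arrays. The array of sham core rat 2 had the highest summed level of the endothelial markers miR-126a-3p and miR-126a-5p of all arrays (15620 normalized units), and PostC peri rat 3 had the highest sum of the 3 red blood cell markers (6628 units, against 966 to 4272 on the other 17). Among the red blood cell markers, miR-144-3p was detected on no array.

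**Figure D1:**
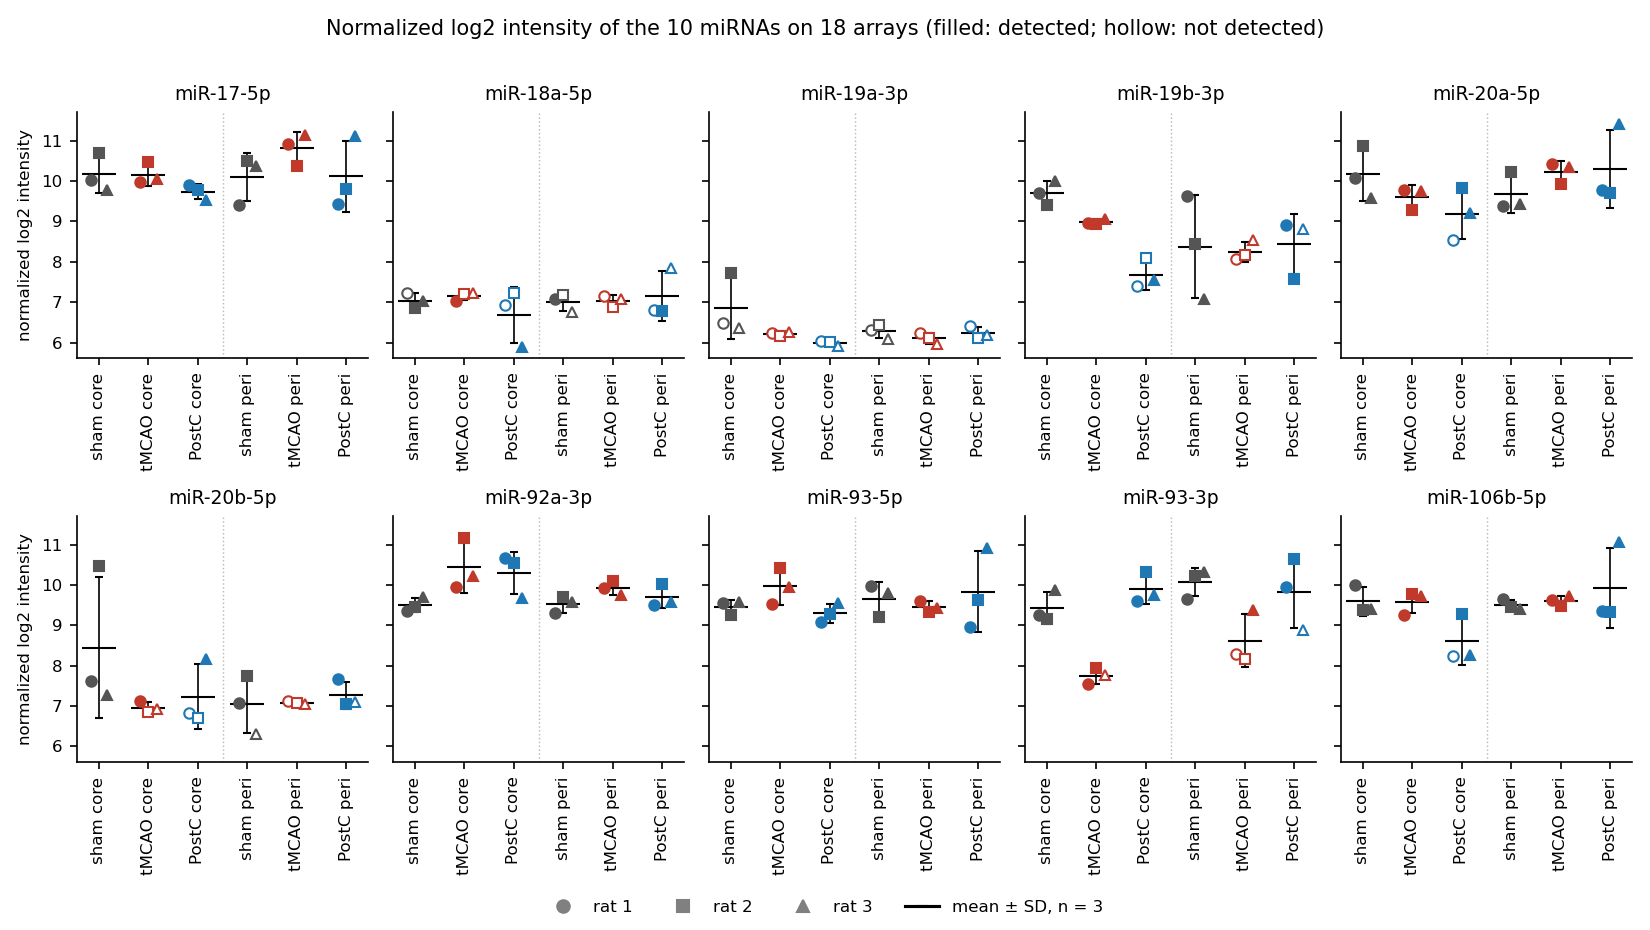
Normalized log2 intensity of the 10 miRNAs in each group, with 1 point per array, filled where the miRNA was detected and hollow where it was not, and bars for the mean ± SD of 3 rats; rats with the same number in different conditions are different animals. The 3 tMCAO core arrays of miR-93-3p lay between 7.54 and 7.94, below every sham and PostC core array, while miR-17-5p, miR-20a-5p, miR-93-5p and miR-106b-5p had their highest PostC value on the peri array of rat 3.

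miR-93-3p was the 1 member whose level changed past the threshold, and it was lower after tMCAO. In core its normalized log2 intensity was 9.26, 9.15 and 9.87 in the sham rats and 7.54, 7.94 and 7.78 in the tMCAO rats. In peri it was 9.66, 10.23 and 10.32 in the sham rats and 8.30, 8.18 and 9.38 in the tMCAO rats. Every tMCAO array lay below every sham array of the same region, with 1 tMCAO peri array, that of rat 3, near the lowest sham value. Sham and tMCAO did not overlap for 41% of all miRNAs in core and 31.6% in peri. All 6 sham arrays detected miR-93-3p, but only 2 of 3 tMCAO core and 1 of 3 tMCAO peri arrays did, so the tMCAO level was near the detection limit. That limit reached higher on the tMCAO than on the sham arrays, so these counts alone do not show a lower level.

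With core and peri averaged within each rat (the rat mean), miR-93-3p fell by 1.56 on the log2 scale after tMCAO (SE 0.33, 95% interval -2.30 to -0.83, n = 3 rats per group), with a limma adjusted p of 0.0147. Since 3 of the 6 tMCAO arrays did not detect it, no fold is given. It was 1 of 9 tested members to pass, against 11.8% of all 532 miRNAs (7.33% lower and 4.51% higher). In core alone it fell by 1.67 (SE 0.39, 95% interval -2.53 to -0.81, limma adjusted p = 0.0427), with 1 of the 3 tMCAO arrays below the detection limit, again as 1 of 9 members, where 3.38% of all miRNAs passed, 1.69% lower and 1.69% higher. In peri the difference was -1.46 (SE 0.48, 95% interval -2.49 to -0.42) with a limma adjusted p of 0.179, and 0 of 9 members passed, against 0.564% of all miRNAs. At an unadjusted p under 0.05 there was 1 member, against 15.2% of all miRNAs, and sham and tMCAO peri did not overlap for 2 members, against 31.6%. The change by tMCAO did not differ between core and peri beyond its error (difference -0.22, SE 0.49, limma adjusted p = 0.946).

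The calls rested on few rats. The rat-mean call was lost without tMCAO rat 1 (-1.43, limma adjusted p = 0.0718) or tMCAO rat 2 (-1.50, adjusted p = 0.0713) and held without sham rat 2, whose core array stood apart (-1.59, adjusted p = 0.0302). The share of all miRNAs called in these fits moved as well, from 11.8% to 5.26%, 1.504% and 6.95%, and to 18.05% without tMCAO rat 3. The core call was lost when any 1 of the 6 rats was left out (-1.81 to -1.45, limma adjusted p from 0.0792 to 0.171), in fits that called 0% to 2.44% of all miRNAs. The direction was the same in each of these fits. Of 11 other ways of processing, 10 kept the rat-mean call, lost by the methods' t-test (adjusted p = 0.0759), and 5 kept the core call.

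In the PostC rats miR-93-3p was higher than after tMCAO and overlapped the sham range. Its values were 9.61, 10.33 and 9.76 in PostC core and 9.95, 10.65 and 8.89 in PostC peri. The PostC core arrays lay above all tMCAO core arrays and overlapped the sham core arrays, whereas in peri the PostC rat 3 array, on which it was not detected, fell within the tMCAO range. PostC and tMCAO did not overlap in core for 18.6% of all miRNAs. Against tMCAO the rat mean was 1.68 higher in PostC (SE 0.33, 95% interval 0.94 to 2.41, limma adjusted p = 0.0145), where 5.64% of all miRNAs passed and 5.08% were higher. In core it was 2.15 higher (SE 0.39, 95% interval 1.29 to 3.01, limma adjusted p = 0.0245), where 2.26% of all miRNAs passed and 2.07% were higher. In peri the difference was 1.21 (SE 0.48, limma adjusted p = 0.725), and 0% of all miRNAs passed. It was the 1 member there at an unadjusted p under 0.05, against 5.83% of all miRNAs.

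Against sham, the PostC rat mean of miR-93-3p differed by 0.11 (SE 0.33, 95% interval -0.62 to 0.85, limma adjusted p = 0.912), where 0 members passed, against 0.188% of all miRNAs. The PostC and tMCAO contrasts used the same tMCAO rats, so that the fall after tMCAO and the higher level in PostC are not independent observations. The call in the rat mean was lost without tMCAO rat 1 (1.55, limma adjusted p = 0.0687), tMCAO rat 2 (1.61, adjusted p = 0.0804) or PostC rat 2 (1.37, adjusted p = 0.0589), where 2.63%, 1.69% and 2.82% of all miRNAs were called. The core call held only without PostC rat 1 (2.29, adjusted p = 0.0329) among the 6 rats left out in turn, with 1.93 to 2.24 and adjusted p from 0.0521 to 0.113 in the other 5 fits, among them that without PostC rat 3 (2.22, adjusted p = 0.0537), and the 6 fits called 0.564% to 2.07% of all miRNAs. Without PostC rat 3, whose peri array stood apart, the rat mean differed by 1.95 (adjusted p = 0.00929) and peri by 1.68 (adjusted p = 0.0288), in a fit that called 11.1% of all miRNAs in peri.

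The marker levels of brain tissue and of other cell types in the same groups were as follows. The summed level of the 5 brain markers ran from 71507 to 73423 normalized units in sham core, from 59869 to 65841 in tMCAO core, without overlap, and from 60903 to 78354 in PostC core. These markers differed among themselves, since from sham core to tMCAO core the mean log2 intensity went from 14.36 ± 0.44 (SD, n = 3) to 12.47 ± 1.20 for miR-9a-5p, from 14.13 to 13.92 for miR-124-3p, from 14.48 to 14.82 for miR-128-3p and from 12.99 to 13.41 for miR-138-5p. The summed level of the endothelial markers ran from 8342 to 15620 normalized units in sham core, from 3747 to 7364 in tMCAO core and from 4226 to 7437 in PostC core. That of the 4 leukocyte markers ran from 354 to 595 units in sham core, from 523 to 966 in tMCAO core and from 414 to 1223 in PostC core, and 2 of the 4 were detected on no tMCAO core array. From sham core to tMCAO core the mean log2 intensity went up from 6.93 to 8.29 for miR-223-3p and from 6.25 to 7.81 for miR-155-5p. It went down from 6.69 to 6.25 for miR-142-3p and from 7.05 to 6.59 for miR-142-5p. The red blood cell sum ran from 2421 to 4272 units in sham core, from 2967 to 4179 in tMCAO core and from 1511 to 1791 in PostC core. Its detected markers differed, since in these groups the mean log2 intensity was 11.51, 11.49 and 10.29 for miR-451-5p. For miR-486 it was 7.08 ± 0.36 (SD, detected on 2 of 3 arrays), 8.99 ± 0.41 (3 of 3) and 8.07 ± 1.07 (2 of 3). In peri the endothelial sums were 6215 to 8407 units in sham, 5257 to 6934 in tMCAO and 6750 to 14323 in PostC. The part of brain tissue content and of these cell types in the miR-93-3p values was not tested.

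The other arm of the same hairpin, miR-93-5p, which carries the shared miR-17 seed, did not pass the threshold in any comparison with all rats and the normalization used here. In core it was 9.55, 9.24 and 9.57 in the sham rats, 9.52, 10.42 and 9.95 in the tMCAO rats and 9.08, 9.28 and 9.55 in the PostC rats. Peri values were 9.98, 9.21 and 9.79 in sham, 9.60, 9.33 and 9.44 in tMCAO and 8.96, 9.63 and 10.92 in PostC. The groups overlapped in both regions, and the rat mean differed between tMCAO and sham by 0.15 (SE 0.32, 95% interval -0.56 to 0.86, limma adjusted p = 0.776).

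The difference between the arms, the log2 value of miR-93-5p minus that of miR-93-3p in the same rat, is given as a description. Only its change between groups can be read, since levels of different probes are not comparable. In core it was 0.29, 0.10 and -0.30 in the sham rats, 1.97, 2.49 and 2.17 in the tMCAO rats and -0.54, -1.05 and -0.21 in the PostC rats. The tMCAO values lay above all others without overlap. The arm difference was 2.18 higher in tMCAO than in sham and 2.81 lower in PostC than in tMCAO, with 1 of the 3 tMCAO core arrays not detecting miR-93-3p. In peri the groups overlapped (tMCAO minus sham 1.25). No test is given, since the measure was chosen after its values were seen.

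**Figure D2:**
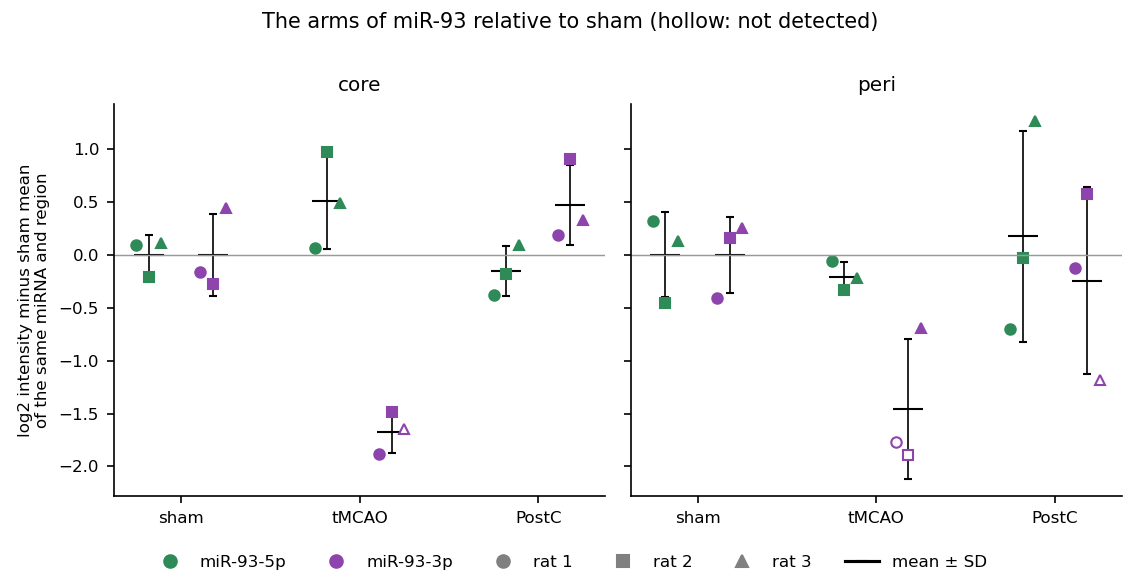
Log2 intensity of miR-93-5p (green) and miR-93-3p (purple) minus the sham mean of the same miRNA and region, with 1 point per rat, hollow where not detected, and bars for the mean ± SD of 3 rats. In tMCAO core miR-93-3p was 1.67 below the sham mean while miR-93-5p was 0.51 above it, and in the peri panel PostC rat 3 had the highest miR-93-5p and the lowest PostC value of miR-93-3p.

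The miR-17 family shares the seed of miR-93-5p and held 5 members, none of which passed in any comparison with all rats and the normalization used here. miR-17-5p, the founding member, was 10.02, 10.69 and 9.78 in sham core, 9.96, 10.47 and 10.04 in tMCAO core and 9.91, 9.77 and 9.54 in PostC core. In peri it was 9.41, 10.50 and 10.36 in sham, 10.91, 10.37 and 11.15 in tMCAO and 9.43, 9.80 and 11.11 in PostC. The highest group mean was that of tMCAO peri (10.81 ± 0.40, SD, n = 3), and its gap to the next, sham core, was the only one between neighbouring groups larger than their SD. In peri the difference between tMCAO and sham was 0.72 (SE 0.47, 95% interval -0.30 to 1.74, limma adjusted p = 0.501), and in the rat mean it was 0.36 (SE 0.28, adjusted p = 0.398).

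miR-20a-5p, of the same cluster, had the values 10.07, 10.87 and 9.57 in sham core, 9.78, 9.28 and 9.76 in tMCAO core and 8.55, 9.82 and 9.20 in PostC core. Peri values were 9.38, 10.22 and 9.44 in sham, 10.41, 9.92 and 10.35 in tMCAO and 9.79, 9.69 and 11.42 in PostC. No gap between neighbouring group means exceeded their SD. The rat means of tMCAO and sham differed by -0.01 (SE 0.36, 95% interval -0.80 to 0.79, limma adjusted p = 0.995), and those of PostC and sham by -0.18 (SE 0.36, adjusted p = 0.875).

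miR-106b-5p, encoded beside miR-93 in the miR-106b-25 cluster, was lowest in PostC core. It was 10.01, 9.37 and 9.41 in sham core, 9.26, 9.78 and 9.73 in tMCAO core and 8.25, 9.29 and 8.27 in PostC core, where rat 1 was below the detection limit. In peri it was 9.65, 9.46 and 9.42 in sham, 9.63, 9.47 and 9.71 in tMCAO and 9.36, 9.33 and 11.07 in PostC. The PostC core arrays lay below all sham core arrays, and the gap between the means of PostC core and sham peri, its neighbour in order, was the only one larger than the SD. PostC and sham did not overlap in core for 22% of all miRNAs. The difference from sham core was -0.99 (SE 0.42, 95% interval -1.94 to -0.05), an unadjusted p of 0.0409 and a limma adjusted p of 0.282. The rat mean differed from sham by 0.04 (SE 0.27, limma adjusted p = 0.927) after tMCAO and by -0.29 (SE 0.27, adjusted p = 0.656) in PostC.

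miR-20b-5p belongs to the miR-106a-363 cluster and was dim on most arrays. It was 7.61, 10.46 and 7.27 in sham core, 7.12, 6.84 and 6.93 in tMCAO core and 6.83, 6.70 and 8.17 in PostC core. The peri arrays gave 7.06, 7.74 and 6.31 in sham, 7.13, 7.08 and 7.05 in tMCAO, where no array detected it, and 7.66, 7.05 and 7.10 in PostC. The sham core value of rat 2 stood 2.85 above the next sham core value, on the array that stood apart, and its 4 spots had an SD of 0.12. The difference between tMCAO and sham in core, -1.48 (SE 0.74, 95% interval -3.14 to 0.17, limma adjusted p = 0.262), was -0.48 (adjusted p = 0.616) without that rat, and 2 of the 3 tMCAO core arrays did not detect it.

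miR-18a-5p, whose seed differs from that of the miR-17 family by a single base, was detected on 3 sham, 1 tMCAO and 2 PostC arrays. Its values ran from 6.76 to 7.22 on the sham arrays, from 6.89 to 7.21 on the tMCAO arrays and from 5.89 to 7.86 on the PostC arrays. The lowest was PostC core rat 3 and the highest PostC peri rat 3, which was below the detection limit of its array. The rat means of tMCAO and sham differed by 0.08 (SE 0.13, limma adjusted p = 0.708).

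The miR-19 pair share a seed that no other miRNA of the array carries. miR-19a-3p was detected on the array of sham core rat 2 alone, at 7.73, while its values ran from 5.90 to 6.48 on the other 17 arrays, and it was not tested. miR-19b-3p was 9.71, 9.41 and 10.002 in sham core, 8.97, 8.92 and 9.06 in tMCAO core and 7.39, 8.09 and 7.55 in PostC core. The 3 core groups did not overlap, with sham highest and PostC lowest, though only 1 of 3 PostC core arrays detected it. In core, sham and tMCAO did not overlap for 41% of all miRNAs, sham and PostC for 22%, and PostC and tMCAO for 18.6%. In peri it was 9.63, 8.43 and 7.07 in sham, 8.06, 8.17 and 8.53 in tMCAO, where no array detected it, and 8.92, 7.58 and 8.81 in PostC, and the groups overlapped.

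In core the difference of miR-19b-3p between PostC and sham was -2.03 (SE 0.37, 95% interval -2.84 to -1.22), the lowest unadjusted p of all 532 miRNAs in that comparison (2.3e-04), with a limma adjusted p of 0.0568. Since 2 of the 3 PostC core arrays did not detect it, the size of this difference is limited by the detection limit and no fold is given. In this comparison 0 of 9 members passed, against 0% of all miRNAs, while 2 members were at an unadjusted p under 0.05, against 16.9% of all miRNAs, and by the methods' t-test 0 members passed as well. Over the other ways of processing the difference ran from -4.01, in the authors' normalized table, to -1.70, and it passed without a variance trend (adjusted p = 0.0179), with the trend on base composition removed (-1.70, adjusted p = 0.0499) and without PostC rat 2 (-2.24, adjusted p = 0.0389). Without sham rat 2 it was -2.18 (adjusted p = 0.0721) and without PostC rat 3 -1.97 (adjusted p = 0.0734), the rats whose core arrays stood apart. Between tMCAO and sham the core difference was -0.72 (SE 0.37, limma adjusted p = 0.262) and between PostC and tMCAO it was -1.31 (SE 0.37, adjusted p = 0.109). Over the other ways of processing the former ran from -1.02 to 0.05 and the latter from -3.12 to -1.22. The summed endothelial and red blood cell markers were also lower in every PostC core array than in every sham core array. Of the detected red blood cell markers, however, miR-451-5p had a lower mean in PostC core (10.29) than in sham core (11.51), and miR-486 a higher one (8.07 against 7.08). The part of these differences in miR-19b-3p was not tested.

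miR-92a-3p, known for repressing angiogenesis in endothelial cells, had higher values after tMCAO that did not pass the threshold. It was 9.36, 9.45 and 9.69 in sham core, 9.94, 11.16 and 10.21 in tMCAO core and 10.65, 10.54 and 9.69 in PostC core. The peri arrays gave 9.29, 9.71 and 9.57 in sham, 9.92, 10.10 and 9.74 in tMCAO and 9.50, 10.03 and 9.59 in PostC. The sham and tMCAO arrays did not overlap in either region, as was so for 41% of all miRNAs in core and 31.6% in peri. In the rat mean the difference was 0.67 (SE 0.28, 95% interval 0.05 to 1.28), with an unadjusted p of 0.0360, under the 0.05 that 31.4% of all miRNAs reached, and a limma adjusted p of 0.126, and in core it was 0.93 (SE 0.44, adjusted p = 0.243). Both leaned on tMCAO rat 2, whose rat mean was 10.63, against 9.93 and 9.98 in tMCAO rats 1 and 3.

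Of the miRNAs with the same seed as miR-92a-3p, miR-25-3p and miR-92b-3p also had higher means after tMCAO that did not pass the threshold. miR-25-3p, the third member of the miR-106b-25 cluster, was 8.92, 9.47 and 9.43 in sham core, 9.86, 11.04 and 10.09 in tMCAO core and 11.47, 10.14 and 9.67 in PostC core. Its rat mean differed between tMCAO and sham by 0.87 (SE 0.26), with a limma adjusted p of 0.0577 and no overlap, as for 41% of all miRNAs. miR-92b-3p, from a separate gene, differed by 0.64 (SE 0.41, adjusted p = 0.303). Both were detected on all 18 arrays, whereas miR-363-3p was detected on 1.

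Across the 9 tested members the median difference between tMCAO and sham was 0.04 in the rat mean, beside -0.02 over all 532 miRNAs, with 5 members higher and 4 lower. This median depended on the processing, from -0.68 with median scaling (all miRNAs -0.21) to 0.49 with plain subtraction (all miRNAs -0.02). The groups did not overlap for 2 of the 9 members, against 41% of all miRNAs, and 2 were at an unadjusted p under 0.05, against 31.4%. In core the medians were -0.01 for the members and -0.05 for all miRNAs, and 4 of 9 members did not overlap, against 41%. There the members' median was -0.29 with median scaling and 0.15 with quantile normalization, and that of all miRNAs was -0.34 in the authors' table. For PostC against sham the rat-mean medians were -0.18 and 0.04, where the members' median was 0.03 without sham rat 2, -0.06 without PostC rat 1 and -0.40 without PostC rat 3. With median scaling the members' median was -0.54 (all miRNAs -0.10). In core the medians for PostC against sham were -0.43 and 0.06, the members' median being -1.11 with plain subtraction and -0.91 in the authors' table, with 7 of 9 members lower and 2 without overlap, against 22% of all miRNAs. For PostC against tMCAO 4 members did not overlap in the rat mean, against 26.1%, and 3 did not in core, against 18.6%, where 3 were at an unadjusted p under 0.05, against 13.3%. In peri PostC and sham overlapped for all 9 members, where 5.08% of all miRNAs did not, and 0 members were at an unadjusted p under 0.05, against 2.63%. PostC and tMCAO peri likewise overlapped for all 9, where 7.89% did not. Of a list of 17 further miRNAs, opposite arms of these hairpins and relatives from these clusters or with a shared seed, which left out miR-32-5p although it carries the seed of miR-92a-3p, 7 could be tested, and 0 passed in any of the 14 comparisons by limma. For the rat mean after tMCAO, 2 of those 7, miR-25-3p and miR-18a-3p, had an unadjusted p under 0.05.

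**Figure D3:**
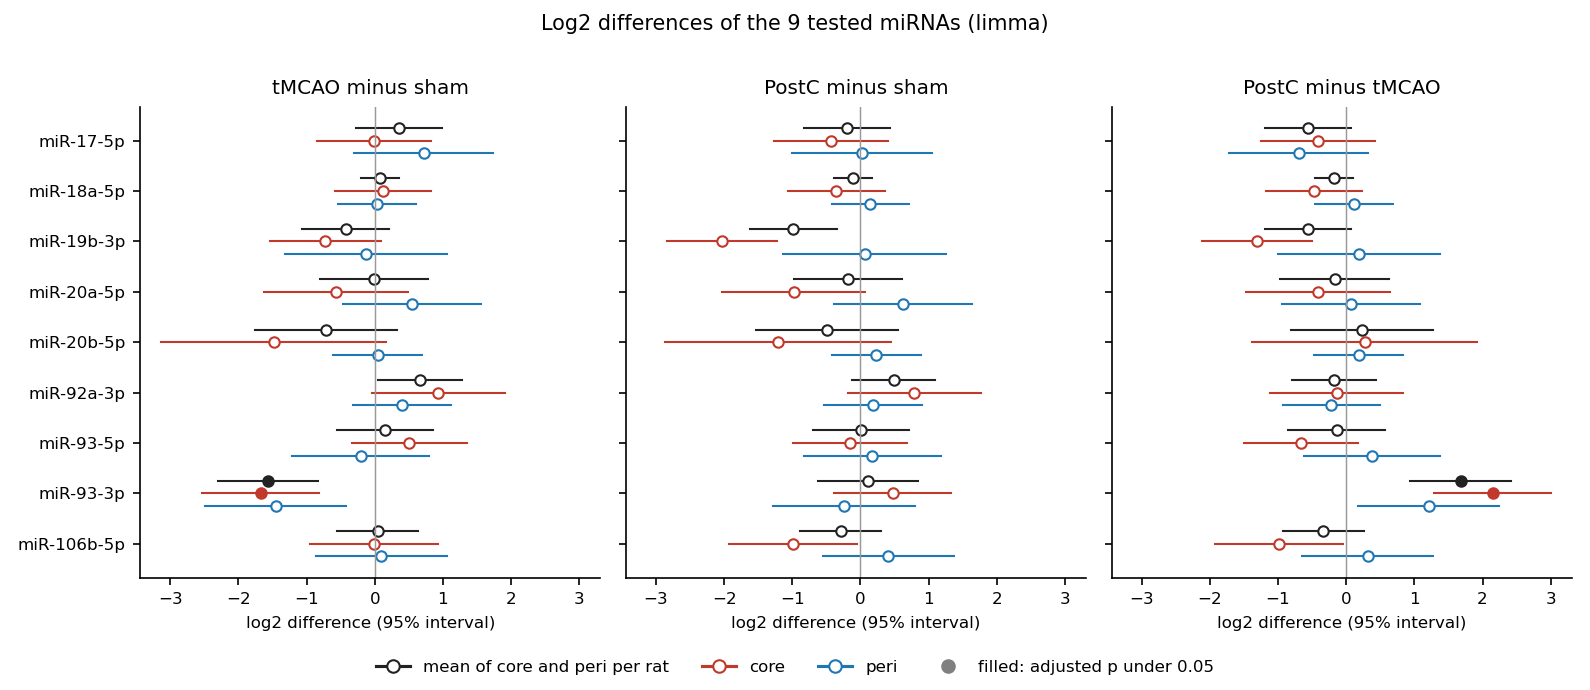
Log2 differences of the 9 tested members with 95% intervals from limma, for the rat mean (black), core (red) and peri (blue), 3 rats per group, filled where the adjusted p was under 0.05. The 4 filled points all belong to miR-93-3p, at -1.56 and -1.67 for tMCAO minus sham and at 1.68 and 2.15 for PostC minus tMCAO.

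Within rats, core and peri were compared directly. In the sham rats 0 of 9 members passed, against 0% of all miRNAs, with 2 members at an unadjusted p under 0.05, against 5.45%. These were miR-20b-5p, with core minus peri values of 0.55, 2.71 and 0.96 in rats 1 to 3 and a mean of 1.41 that was 0.75 without rat 2, and miR-19b-3p, with 0.08, 0.98 and 2.93. In the tMCAO rats 0 of 9 passed, against 0.94% of all miRNAs, and 1 was at an unadjusted p under 0.05, against 10.9%. This was miR-93-3p, which had core minus peri values of -0.76, -0.24 and -1.60 (mean -0.87, limma adjusted p = 0.372), and it was lower in core in all 3 sham rats too, at -0.41, -1.08 and -0.45. miR-20a-5p lay within a narrow range there, at -0.64, -0.64 and -0.58 (mean -0.62, SE 0.38, adjusted p = 0.640), below its values of 0.69, 0.66 and 0.13 in the sham rats without overlap, but the change by tMCAO in core minus that in peri (-1.11, SE 0.53) had a limma adjusted p of 0.576.

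In the PostC rats 0 of 9 members passed between core and peri, against 0% of all miRNAs, and 2 were at an unadjusted p under 0.05, against 9.77%. miR-106b-5p had core minus peri values of -1.11, -0.04 and -2.79 (mean -1.32, SE 0.43, limma adjusted p = 0.399). miR-20a-5p had -1.24, 0.13 and -2.22 (mean -1.11, SE 0.38, adjusted p = 0.399). Rat 3 gave the largest difference for both, on the peri array that held the highest red blood cell marker sum, and their means without it were -0.58 and -0.55. Without PostC rat 2 both passed, at -1.95 (adjusted p = 0.0377) and -1.73 (adjusted p = 0.0346), in a fit that called 3.38% of all miRNAs. No member passed in the test of whether the change by tMCAO or by PostC differed between core and peri, against 0% of all miRNAs in each. At an unadjusted p under 0.05 there was 1 member for tMCAO, against 8.65% of all miRNAs, and 3 for PostC, against 10.5%, namely miR-19b-3p (-2.09), miR-20a-5p (-1.60) and miR-106b-5p (-1.40), and 2 members did not overlap in each, against 28.9% and 15%.

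**Figure D4:**
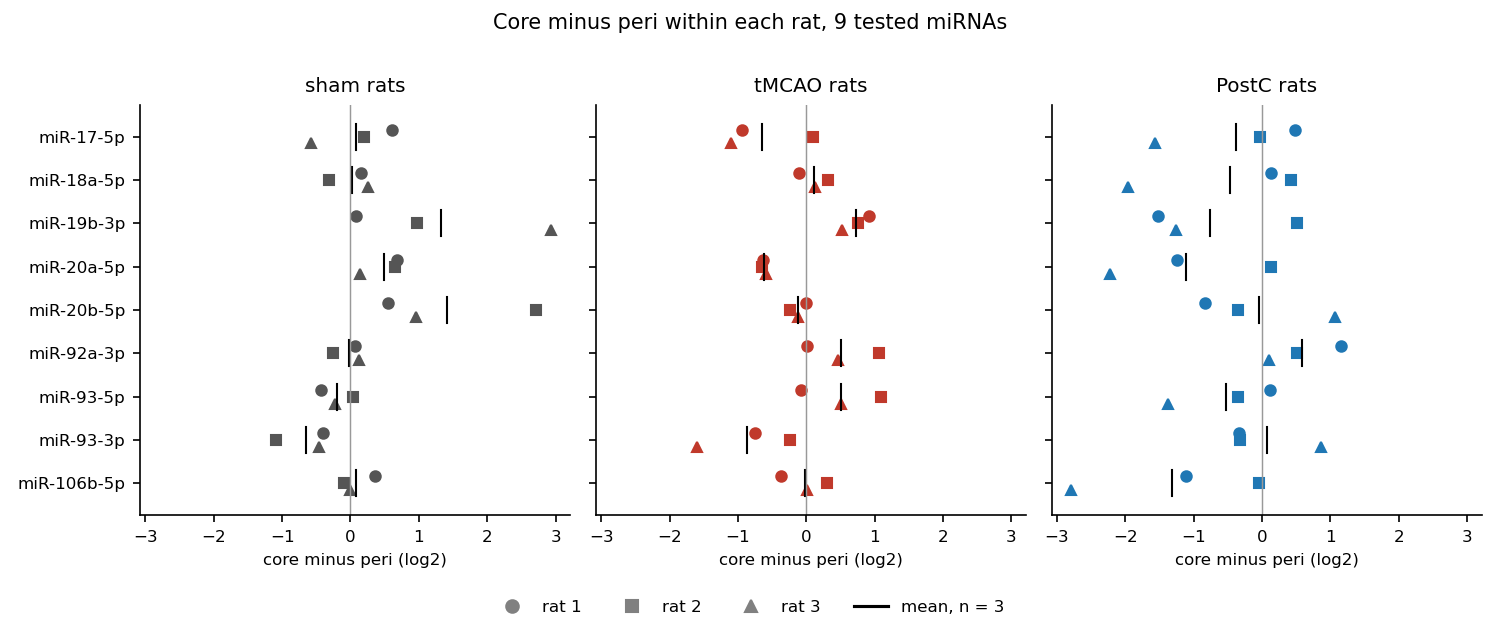
Core minus peri difference in log2 intensity for the 9 tested members within each rat, with 1 point per rat and a bar for the mean of 3. The points of miR-20a-5p lay between -0.64 and -0.58 in the tMCAO rats, and PostC rat 3 stood farthest to the left for miR-20a-5p (-2.22) and miR-106b-5p (-2.79).

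The PostC peri array of rat 3 stood above its group mates for 4 of the 5 miR-17 family members, at 11.11 for miR-17-5p, 11.42 for miR-20a-5p, 10.92 for miR-93-5p and 11.07 for miR-106b-5p, where the other PostC peri arrays lay between 8.96 and 9.80. The median deviation of the members from their group mean was 0.71 on that array and between -0.35 and 0.41 on the other 17. The summed endothelial markers were 14323 normalized units on it, against 6750 and 7779 on its mates. The part of blood and vessel cells in these values was not tested.

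Over the 18 arrays of 9 rats, which share rats and regions, the level of miR-106b-5p followed those of miR-20a-5p (Pearson r = 0.74), miR-93-5p (r = 0.68) and miR-18a-5p (r = 0.81), the last detected on only 6 of the arrays, while miR-93-3p had r between -0.34 and 0.02 with the other 8 tested members. Among 523 other miRNAs tested, the 3 whose profile was most like the mean of the members were miR-152-3p (r = 0.86), miR-194-5p (r = 0.86) and miR-140-5p (r = 0.84). These values are descriptive. miR-106b-5p, miR-20a-5p, miR-93-5p and miR-18a-5p each had their highest value on the PostC peri array of rat 3, which stood apart.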

How the data were processed

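Total RNA was hybridised by a service provider to µParaflo chips holding rat miRNA probes, each spotted 4 times. The labels name a miRNeasy kit and the methods Trizol for its extraction, and the labels name the organism as Rattus rattus although the probes carry Rattus norvegicus names. Each array's deposited file holds 1 median scanner intensity per spot, neither background-subtracted nor normalized. A second deposited table, an alternative here, holds intensity values from which the authors had taken the background and which they had normalized by LOWESS. No column was without a sample (0).

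The deposited intensities have no local background, so normexp with an offset of 50 was fitted to all spots, and the corrected values were taken to log2 and normalized by cyclic loess over the 18 arrays, and the 4 spots of a probe were averaged. miRNAs detected on at least 3 arrays were tested. limma 3.58.1 in R 4.3.3 (lmFit, eBayes with a variance trend) compared 1 value per rat, with the spread shared over the 3 conditions and Benjamini-Hochberg adjustment at 0.05 over all miRNAs tested. Since cyclic loess centres the arrays on one another, a difference stands relative to the remaining miRNAs. Simulated log2 values per rat with known changes were used to check the limma fit, but not the background correction, detection or normalization before it. Precision is limited by the number of arrays. Alternatives were plain background subtraction, quantile normalization, median scaling, the authors' table, other detection filters, removal of a trend on base composition, no variance trend, only the groups compared, a replicate block, the methods' t-test (Student, equal variances) and leaving out each rat.

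All 10 members are named, of 17 further arms and seed relatives those past the threshold with miR-25-3p, miR-92b-3p and miR-363-3p, and the 3 miRNAs most like the members in profile; miR-18a-3p was named after its values were seen. The members, the list of relatives and the marker lists were chosen with earlier results of these data known. Python 3.11.15 with pandas 2.3.3 and matplotlib 3.10.9 handled sequences and figures. Positions in the genome were not analysed here.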

Additional observations from a re-analysis of the deposited data

How the results depend on the processing

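The fall of miR-93-3p after tMCAO in the rat mean passed under 10 of the 11 other ways of processing (-2.27 to -1.54) and that in core under 5 of 11; the higher level in PostC than in tMCAO passed under 10 of 11 in the rat mean and 7 of 11 in core. With only miRNAs detected on all arrays, 3 members remained and 0 passed where 1 had. By the methods' t-test 0 passed in these 4 comparisons, where it called 0% to 4.32% of all miRNAs. In core after tMCAO 0 also passed with plain subtraction, quantile normalization, median scaling, no filter or a replicate block (0.564% to 3.01% of all miRNAs called), and for PostC against tMCAO in core 0 passed with median scaling, only the groups compared or a replicate block (0.564% to 2.07%), and 2 without a variance trend (3.01%), miR-19b-3p being added. The rat numbers did not pair animals across conditions (correlations of deviations from -0.45 to 0.44, 4 of 27 pairs over 0.1), and the replicate block changed no other count of members. For PostC against sham in core 1 member passed with the trend on base composition removed (0.94% of all miRNAs) or without a variance trend (0.188%). Median scaling called 2 members in the rat mean after tMCAO (miR-19b-3p, -1.01) and 2 in peri (miR-93-5p, -1.38, and miR-93-3p, -2.57), where it called 24.4% and 24.1% of all miRNAs and moved the median of all miRNAs from -0.02 to -0.21 and from -0.01 to -0.42. Relative to that median, miR-93-3p was -2.06 and -2.14. It shifted that median by over 0.1 in 9 of 14 comparisons, the authors' table in 6 and plain subtraction in 2. In the rat mean after tMCAO 24 of all miRNAs were called higher and 39 lower, against 26 and 104 with median scaling and 33 and 93 in the authors' table. Leaving out 1 rat at a time gave 0 to 1 members in both rat-mean comparisons (1.504% to 18.05% of all miRNAs after tMCAO, 1.69% to 7.33% for PostC), 0 to 0 for tMCAO in core (0% to 2.44%), 0 to 1 for PostC against sham or tMCAO in core and against tMCAO in peri, 0 to 2 for core against peri in PostC and 0 to 1 for the difference of the PostC changes (miR-20a-5p without PostC rat 2, -2.22, with 1.88% of all miRNAs called). Of 2076 single values, 148 changed sign, in each case with neither value called. The causes were not tested.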
